A study of Homo sapiens with 64 samples.

Results

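The genes of the proteasome were followed through 64 RNA sequencing libraries of human colorectal cancer cell lines. They were taken by name, as every protein-coding gene whose symbol begins with PSMA, PSMB, PSMC, PSMD or PSME and ends in a number, without the immunoproteasome subunits PSMB8, PSMB9 and PSMB10. Of 40 such genes, 39 had a row among the 54127 genes counted, and PSMB3 was not analysed here. PSMA8, an alpha subunit of the testis, had 1 read in all 64 libraries together, and PSMB11, a beta subunit of thymic cortical epithelium, had 6. Neither passed the filter of at least 10 counts in at least 4 libraries of a comparison, so 37 genes were tested in every comparison.

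The proteasome degrades proteins that carry ubiquitin chains. Its 20S core is a barrel of stacked rings, with alpha subunits (PSMA) at the gate and beta subunits (PSMB) inside, of which PSMB5, PSMB6 and PSMB7 cut the substrate. The 19S regulatory particle caps the barrel, where ATPases (PSMC) unfold the substrate and non-ATPase subunits (PSMD) bind and remove the ubiquitin, and the 11S and PA200 activators (PSME) open the gate without ATP. When proteasome activity is short, the transcription factor NRF1, encoded by NFE2L1, is known to raise subunit genes together through antioxidant response elements in their promoters.

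All lines were established colorectal cancer lines, grown as nonadherent spheroids with EGF and bFGF. HT55 and SW948 belonged to colon cancer subtype CCS1, RKO and SW48 to CCS2, and DLD1 and HCT15 to CCS3. Each line was labeled with CFSE, a dye that is diluted at every division, and sorted on day 6 into label-retaining cells (LRCs) and cycling cells (non-LRCs, labeled BULK). The unsorted controls were DLD1 spheroids labeled with CFSE or left unlabeled (DMSO in the labels), on d1 and on a late day that the labels give as d5 and the series text as d6. Every group held 4 replicates, 12 sorted and 4 control groups in all, and the methods call them biological replicates. The dye was present in both sorted populations, and LRC here means a range of CFSE signal and not a marker.

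Depth lay between 12237225 and 20913455 reads counted on genes per library, with a median of 15063858. Epithelial markers were present in every line, but their summed level was 217 to 324 CPM (reads of the gene per 1000000 gene reads) in RKO against 2680 CPM or more in every other library, and KRT20 and VIL1 did not pass the filter in RKO. Of the immune, stromal and endothelial markers, CD68 alone passed it in RKO, at 991 to 1570 CPM. Replicate 2 of the SW48 non-LRCs stood apart, with 0.459% of its reads on the proteasome genes against 0.329% to 0.344% in the other 3. RNA came from many cells, so fewer cells with a transcript and less transcript per cell cannot be told apart.

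Together the proteasome genes took between 0.305% and 0.583% of the reads counted on genes. In RKO their share was 0.529% ± 0.018 (SD, n = 4) in non-LRCs and 0.416% ± 0.017 in LRCs, and the libraries did not overlap, with 0.509% to 0.552% against 0.400% to 0.439%. In DLD1 the share was 0.455% ± 0.010 and 0.413% ± 0.018, again without overlap. The other lines had overlapping shares, with 0.353% and 0.346% in HT55, 0.423% and 0.425% in SW948, 0.367% and 0.331% in SW48, and 0.407% and 0.404% in HCT15, each non-LRC first. Same-numbered libraries were taken as pairs in HT55, SW48, DLD1 and HCT15, where their deviations from the group means correlated. Not every library there correlated best with its own number, so the pairing is not certain. The LRC share was the lower one in 4 of 4 pairs in HT55, SW48 and DLD1 and in 2 of 4 in HCT15. An exact two-sided permutation test over 4 pairs cannot go below p = 0.125, which it gave in each of the first 3. The unsorted DLD1 cultures had 0.500% and 0.460% without the dye on d1 and d5, and 0.557% and 0.544% with it.

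**Figure D1:**
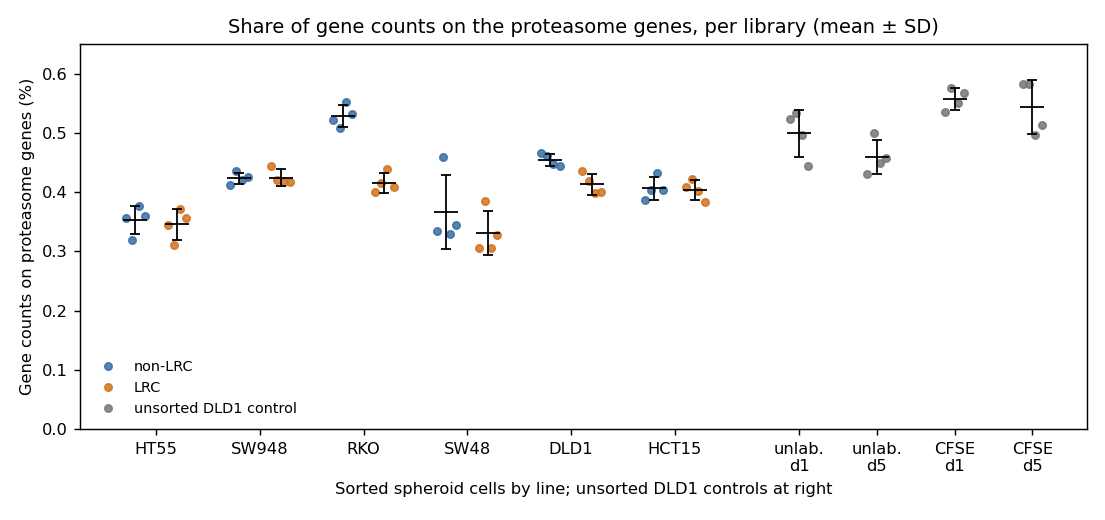
Share of each library's gene counts that fell on the proteasome genes, in percent, by cell line and population and in the 4 DLD1 control groups. Points are libraries and bars are the mean ± SD of 4; RKO and DLD1 are the lines whose LRC libraries all lie below their non-LRC libraries.

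With the 6 lines fitted together, proteasome genes were more often lower than higher in LRCs. Of the 37 tested, 15 were lower and 0 higher (edgeR's quasi-likelihood test with line as a covariate, two-sided, Benjamini-Hochberg adjusted p under 0.05), where 10.7% of all 16603 genes tested were lower and 12.2% higher. Of the 10980 genes expressed at least as highly as the lowest tested proteasome gene, 1700 were lower and 1377 higher, with a median log2 fold change of -0.01. The median was -0.10 over the proteasome genes and 0.01 over all genes tested, and 34 of the 37 proteasome genes lay below 0. The changes were small, since the most decreased gene, PSMA1, fell to 0.872 times its non-LRC level. They also rested largely on RKO. Without that line 2 genes were lower (6.62% of all genes lower and 7.98% higher), namely PSMA7 (log2 fold change -0.12, adjusted p = 0.0387 by edgeR) and PSME3 (-0.12, adjusted p = 0.0114), and the median was -0.06. Without DLD1, or without replicate 3 of every line, 9 were lower.

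The genes called came from both rings of the core, from the 19S particle and from the activators. In the alpha ring, 4 of 7 tested genes were lower, with a median log2 fold change of -0.17. In the beta ring, 4 of 6 were lower, with a median of -0.13. Of the 19S particle, 1 of 6 ATPases and 4 of 11 non-ATPase subunits were lower, with medians of -0.05 and -0.09. None of the 3 chaperones of 19S base assembly (PSMD5, PSMD9 and PSMD10) was called, and 2 of the 4 activators were. These counts were not tested against each other.

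PSMA1, PSMA3 and PSMA7, all alpha subunits, had the largest changes across the lines. PSMA7 (ENSG00000101182, chr20:60711789-60718496, GRCh37) had a log2 fold change below 0 in all 6 lines, from -0.56 in RKO to -0.03 in HT55. It was called in 2 of them, RKO and DLD1. Across the lines its log2 fold change was -0.19 ± 0.04 (SE, adjusted p = 0.000905 by edgeR). In RKO its non-LRC libraries had 218, 213, 247 and 214 CPM and its LRC libraries 155, 137, 166 and 146 CPM, which do not overlap. In DLD1 they had 168, 167, 162 and 163 CPM against 151, 138, 133 and 124 CPM. SW48 was the third line without overlap, with 140, 186, 137 and 148 CPM against 128, 135, 124 and 132 CPM. The other lines overlapped. SW948 had 268, 292, 262 and 262 CPM in non-LRCs and 304, 252, 246 and 250 CPM in LRCs, HT55 144, 134, 170 and 156 against 138, 132, 163 and 155, and HCT15 128, 128, 131 and 112 against 115, 131, 122 and 112.

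PSMA3 (ENSG00000100567, chr14:58711561-58738730, GRCh37) fell by 0.20 on the log2 scale across the lines (SE 0.05, adjusted p = 0.00371 by edgeR). Its change was largest in RKO and DLD1. In RKO, non-LRCs had 67.5, 67.0, 78.4 and 70.0 CPM and LRCs 37.8, 44.5, 45.2 and 44.6 CPM. In DLD1, non-LRCs had 103, 103, 92.9 and 96.6 CPM and LRCs 83.8, 81.3, 70.5 and 73.5 CPM. Every LRC library lay below every non-LRC library in both. In HCT15 the values were 75.7, 79.3, 81.3 and 80.4 CPM in non-LRCs and 69.2, 79.8, 68.1 and 73.5 CPM in LRCs, with 1 LRC library inside the range of the non-LRCs. HT55 had 85.4, 71.8, 82.5 and 80.3 against 72.7, 74.3, 88.8 and 76.0 CPM, and SW948 64.1, 66.5, 72.4 and 61 against 69.4, 66.3, 57.8 and 69.2 CPM. SW48 was level, with means of 95.6 CPM in non-LRCs (88.3, 118, 91.7 and 84.3) and 95.5 CPM in LRCs (85, 109, 93.5 and 94.0).

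PSMA1 (ENSG00000129084, chr11:14526420-14665181, GRCh37) had the lowest fold, -0.20 ± 0.06 on the log2 scale (adjusted p = 0.0088 by edgeR), but its counts are uncertain because 67.0% of its exon bases are shared with a readthrough gene. Its RKO libraries had 38, 39.3, 44.7 and 39.7 CPM in non-LRCs and 22.2, 27.0, 28.0 and 28.5 CPM in LRCs, without overlap. In DLD1 they had 35.0, 36.8, 33.7 and 27.0 CPM against 26.6, 31.8, 21.2 and 26.2 CPM, and in HCT15 26.3, 28.7, 23.0 and 25.7 CPM against 22.2, 22.3, 18.7 and 23.4 CPM, with 1 LRC library of each line inside the range of its non-LRCs. The ranges of the CCS1 lines and SW48 ran through each other. HT55 had 36.4, 23.3, 29.1 and 27.5 CPM against 26.1, 31.7, 31.5 and 24, SW948 34.9, 37.5, 47.2 and 40.8 against 43.7, 41.2, 34.5 and 42.0, and SW48 27.7, 30.5, 33.8 and 27.7 against 28.9, 32.5, 29.6 and 27.4. Among the 39 genes, 8 share over 10% of their exon bases with another gene, and 5 share over 50% (PSMA1, PSMA2, PSMA6, PSMC1 and PSMD7). Of the 29 tested genes with less sharing, 14 were lower across the lines.

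**Figure D2:**
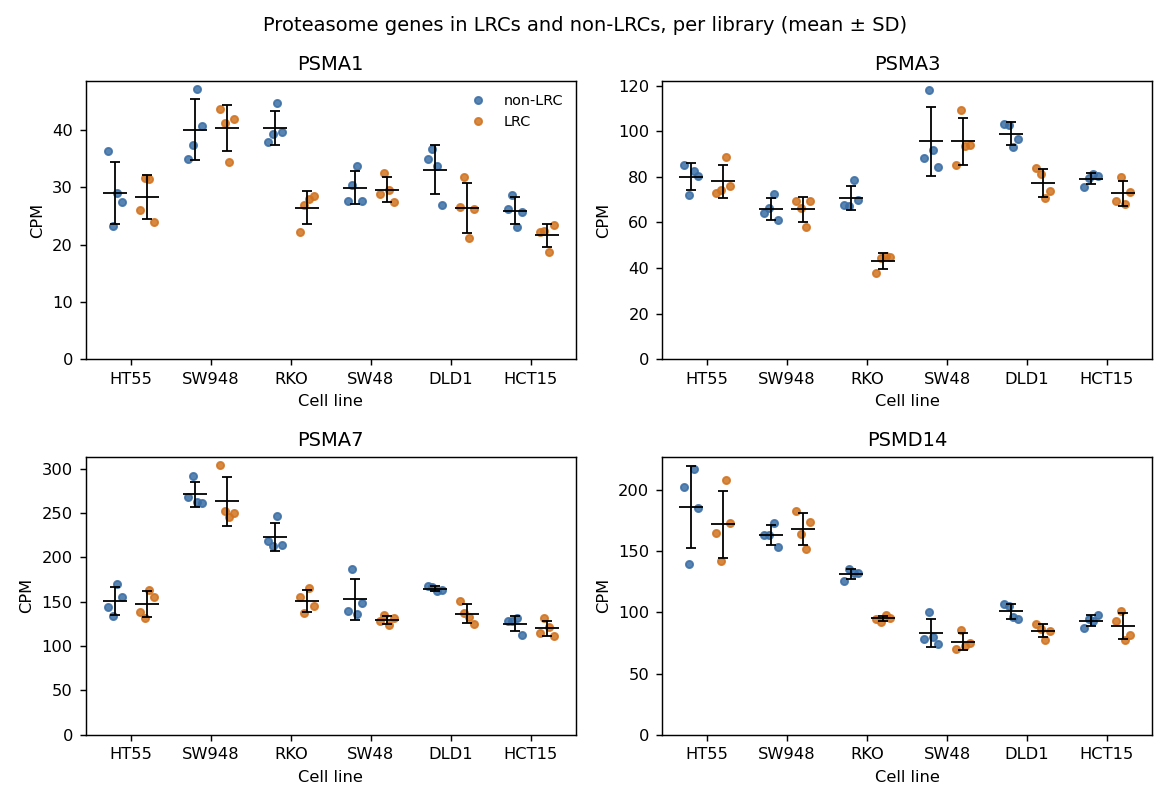
CPM of PSMA1, PSMA3, PSMA7 and PSMD14 in every sorted library, by line (x axis), non-LRCs in blue and LRCs in orange, with the mean ± SD of 4. The populations separate in RKO for all 4 genes, with PSMA3 at 67.0 to 78.4 CPM in non-LRCs and 37.8 to 45.2 CPM in LRCs, and lie on each other in HT55 and SW948.

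Other core subunits called across the lines were PSMB6 (-0.17), the caspase-like site, PSMA4 (-0.17), PSMB2 (-0.17), PSMB1 (-0.13) and PSMB7 (-0.13), the trypsin-like site. PSMB5, the chymotrypsin-like site and the target of bortezomib, had a log2 fold change of -0.09 and was not called (adjusted p = 0.079 by edgeR). In the 19S particle, PSMD14, the deubiquitinase that cuts ubiquitin chains from the substrate, fell by 0.16 on the log2 scale (adjusted p = 0.0110 by edgeR) and PSMD1, a large scaffold of the base, fell by 0.15. PSMD11, PSMD3 and the ATPase PSMC3 were lower too, by 0.12, 0.12 and 0.11 on the log2 scale. Among the activators, PSME3, the nuclear PA28 gamma, fell by 0.15 and PSME1, PA28 alpha, by 0.13. PSME2, PA28 beta, stood at -0.11 (adjusted p = 0.113 by edgeR) and PSME4, which encodes PA200, at 0.02 (adjusted p = 0.828 by edgeR).

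RKO accounted for the largest changes. In this line 32 of the 37 genes were lower in LRCs and 0 higher, where 21% of all 12731 genes tested were lower and 20.4% higher. The median log2 fold change of the proteasome genes was -0.34, against 0.01 over all genes tested. All 6 beta subunits, all 6 ATPases and all 11 non-ATPase subunits were lower, as were 6 of 7 alpha subunits. Medians were -0.56 in the alpha ring, -0.51 in the beta ring, -0.30 in the ATPases and -0.40 in the non-ATPase subunits. The count lay between 29 and 32 with any 1 of the 8 libraries left out.

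PSMA3 led in RKO and in DLD1, and was called in both with any 1 library left out. In RKO it had LRCs at 0.610 times the non-LRC level (log2 fold change -0.71 ± 0.08, adjusted p = 9.66e-06 by edgeR), followed by PSMA2 (-0.61) and PSMA1 (-0.61). PSMA2 lies wholly within the exons of a readthrough gene and had few reads, with 6.76, 8.48, 7.60 and 7.07 CPM in non-LRCs and 3.38, 5.01, 5.24 and 5.64 CPM in LRCs. All 3 catalytic subunits were lower, PSMB6 by 0.52, PSMB7 by 0.52 and PSMB5 by 0.23 on the log2 scale. PSMD14 was at 125, 135, 132 and 132 CPM in non-LRCs and 94.4, 92.6, 97.7 and 95.7 CPM in LRCs, a wide gap beside the spread in either population. The 5 genes not called in RKO were PSMA6, PSME2, PSME4, PSMD5 and PSMD9, which were named after their values were seen. PSME2 (0.08) and PSME4 (0.03) had values close to 0.

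DLD1 was the only other line with calls by the unpaired test. In it 12 genes were lower in LRCs and 0 higher, with 7.89% of all 13592 genes lower and 6.67% higher, and the median log2 fold change was -0.13. PSMA3 (-0.33 ± 0.06, adjusted p = 0.00655 by edgeR), PSMA4 (-0.27) and PSMD1 (-0.27) changed most. PSME2 fell by 0.25, PSMD14 by 0.22, PSME3 by 0.18 and PSMB7 by 0.16 on the log2 scale. PSMB5 (-0.09), PSMB6 (-0.07), PSME1 (-0.09) and PSME4 (-0.14) were not called. Of the 12 genes, 10 were also lower in RKO, where 32 of all 37 (86.5%) were, so this overlap sets the 12 genes apart from nothing. With same-numbered libraries paired, 19 genes were lower (16.6% of all genes lower and 17.1% higher). The unpaired count fell to 3 without non-LRC replicate 1, to 7 without LRC replicate 3 and to 6 without LRC replicate 4.

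No proteasome gene was called in HT55, SW948, SW48 or HCT15 by edgeR, and none by DESeq2. The number with an unadjusted p under 0.05 was 0 in HT55, 1 in SW948, 0 in SW48 and 2 in HCT15. In HT55 and SW948 0% of all genes were called higher and 0% lower, so the test gave no calls at all there. In SW48 0.72% of all genes were higher and 0.0758% lower, and in HCT15 0.728% and 0.25%. Median log2 fold changes of the proteasome genes were 0.01 in HT55, 0.00 in SW948, -0.09 in SW48 and -0.01 in HCT15. In SW48, 29 of 37 genes lay below 0, but its median rested on non-LRC replicate 2, the library that stood apart, and was -0.0002 without it. With any 1 library left out, the medians of the other 3 lines lay between -0.04 and 0.05. In SW948, 1 gene was called higher without LRC replicate 4. With paired libraries 3 genes were called in HCT15, where 10% of all genes were then lower and 11.3% higher. These were PSME1 (-0.29), PSMA1 (-0.24) and, in the other direction, PSMD12 (0.20), a lid subunit of the 19S particle.

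**Figure D3:**
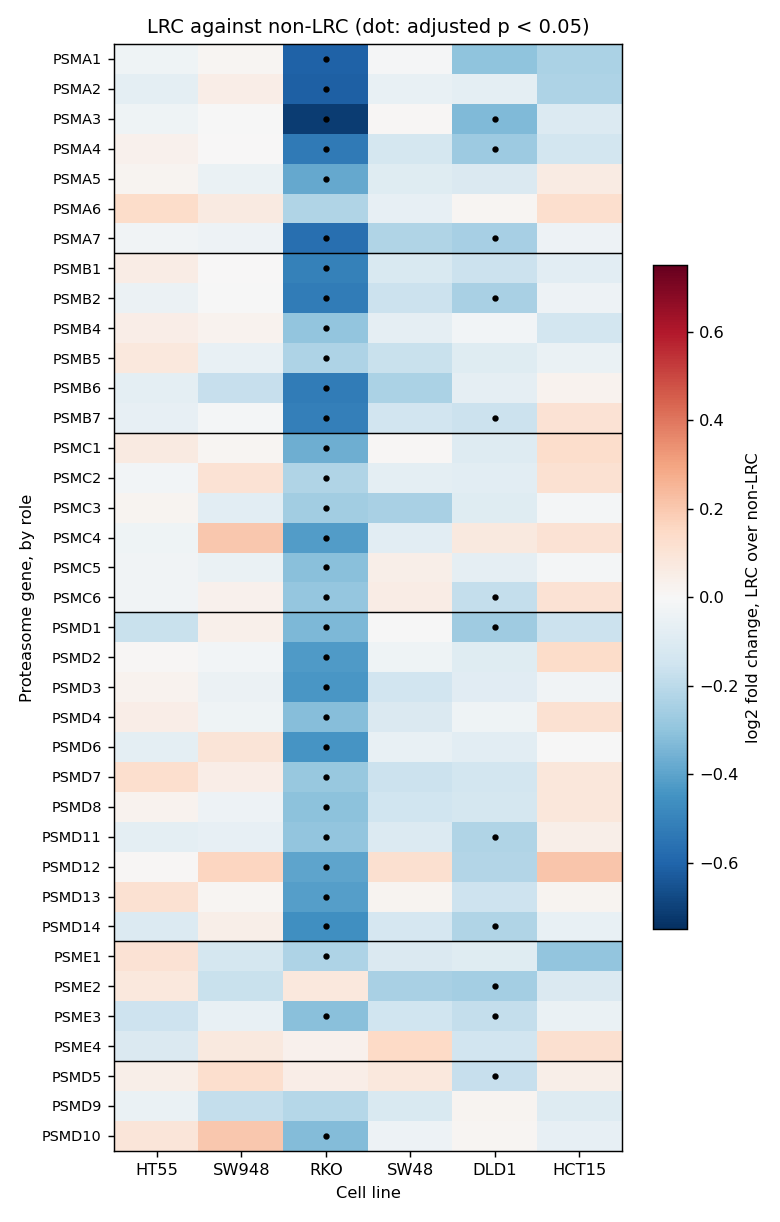
Log2 fold change of LRCs over non-LRCs (color) for each of the 37 tested proteasome genes (rows, grouped by role) in each line (columns), with a dot where the adjusted p is under 0.05. Dots fill 32 rows in RKO and 12 in DLD1, all on the lower side.

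The LRC effect differed between the lines for 15 of the 37 genes (edgeR's test of the interaction of line and population), where 14.3% of all 16603 genes tested differed. PSMA3 had the smallest adjusted p (2.30e-04 by edgeR), with log2 fold changes from -0.71 in RKO to 0.01 in SW48. PSMA4 (adjusted p = 0.00618 by edgeR) ran from -0.53 in RKO to 0.03 in HT55, and PSMD12 (0.00989) from -0.40 in RKO to 0.21 in HCT15. For 33 of the 37 genes the lowest of the 6 values was that of RKO. The share of all genes that were lowest in RKO was not counted. RKO also had the most genes called of any line, 41.5% of all genes tested against 14.6% in DLD1. With RKO left out, 0 genes differed between the other 5 lines by edgeR, where 1.02% of all genes did. The count moved widely with the libraries used. It was 1 without replicate 1 of every line, 20 without replicate 2, 2 without replicate 3 and 3 without replicate 4. Each of these fits dropped 1 library from every group, and the part of the smaller sample size was not tested. The shares of all genes that differed in these fits were not counted.

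Proliferation markers were lower in the LRCs of RKO and DLD1, the lines with proteasome genes called by the unpaired test. In RKO 11 of the 12 were lower in LRCs (median log2 fold change -0.70), and their summed level was 1800 to 1890 CPM in non-LRCs and 839 to 1490 CPM in LRCs. In DLD1 10 of 12 were lower (median -0.60), with 1560 to 1720 CPM against 911 to 1350 CPM. In SW48 the median was -0.49 with 0 of 12 called, and in SW948, HT55 and HCT15 it was -0.08, 0.04 and 0.18, again with 0 called. The part of the proliferation markers in the proteasome changes was not tested. CD68, a lysosomal glycoprotein and macrophage marker, was higher across the lines (log2 fold change 0.77), and its part was not tested either.

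Genes that build or regulate the proteasome were read from lists made by hand. Of the 6 genes of 20S assembly and inhibition, 2 were lower across the lines, the assembly chaperones PSMG1 (-0.23) and PSMG4 (-0.15). In RKO PSMG1 (-0.66) and POMP, the chaperone that completes the beta ring (-0.57), were lower, and in DLD1 PSMG1 (-0.28) was. Of 10 subunits and partners of the 19S particle with other names, 3 were lower across the lines, among them the deubiquitinases UCHL5 (-0.15) and USP14 (-0.11). With 10.7% of all genes lower and 12.2% higher across the lines, and 21% lower in RKO, counts in lists this small set neither list apart.

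The 8 genes of the NRF1 route did not share one direction. SEL1L (0.17), of the endoplasmic reticulum export machinery, and MAFG (0.16), a DNA-binding partner of NRF1, were higher across the lines, and VCP (-0.12), the ATPase that extracts NRF1, was lower. NFE2L1 itself was higher in LRCs of RKO (0.34) and of DLD1 (0.21), where 20.4% and 6.67% of all genes were higher. Across the lines NFE2L1 was not called (0.11, adjusted p = 0.0508 by edgeR). Its LRC effect was not called as differing between lines (adjusted p = 0.116 by edgeR's interaction test). The immunoproteasome subunits had 0 of 3 called across the lines by edgeR and 1 at an unadjusted p under 0.05, with log2 fold changes from -0.14 to 0.07. In RKO PSMB8 was higher (0.29) and PSMB10 lower (-0.42). PSMB10 shares 56.1% of its exon bases with an overlapping gene.

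Promoters of the proteasome genes were searched for 4 common regulatory elements, among them that of NRF1. RefSeq promoters (GRCh38.p14, 250 bases before to 50 after the start) were matched for 34 of the 39 genes, and those of 5 genes were not analysed here. The antioxidant response element, searched as TGACNNNGC on either strand, stood in 11 of the 34 genes (32.4%) and in 13.3% of all 35116 promoters. The CCAAT box (CCAAT) stood in 17 genes (50.0%) against 34.6% of all promoters, the ETS site (CCGGAAG) in 13 (38.2%) against 10.3%, and the E-box (CACGTG) in 2 (5.88%) against 7.26%. Several genes had more than 1 promoter and were counted if any held the letters. The shares of all promoters count each promoter singly and not by gene. A gene with several promoters had more chances to match, so these percentages cannot be compared directly. A match of letters is a description and not a binding site.

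Shown here are PSMA3 and PSMD14, lower in the LRCs of RKO and DLD1, and PSMD1, PSMD12 and PSME4, which were called in comparisons of the dye or time described further on. PSMD1 was also lower in the LRCs of RKO and DLD1, and PSMD12 in those of RKO, so these sets overlap. Capitals mark the elements named above on either strand. PSMA3 (chr14:58244593-58244892, plus strand) has CCAAT boxes that start 35 and 18 bases before the start, and no antioxidant response element. PSMD14 (chr2:161308175-161308474, plus strand) has overlapping CCAAT boxes and an ETS site. PSMD1 (chr2:231056617-231056916, plus strand) has an antioxidant response element behind the start, and PSMD12 (chr17:67366528-67366827, minus strand) and PSME4 (chr2:53970944-53971243, minus strand) have one before it, with an ETS site each.
PSMA3: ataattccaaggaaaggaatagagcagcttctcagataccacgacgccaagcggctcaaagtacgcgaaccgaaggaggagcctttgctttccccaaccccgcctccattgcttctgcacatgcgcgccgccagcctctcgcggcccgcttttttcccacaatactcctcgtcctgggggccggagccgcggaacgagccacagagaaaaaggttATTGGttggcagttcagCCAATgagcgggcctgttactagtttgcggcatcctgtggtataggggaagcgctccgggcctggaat
PSMD14: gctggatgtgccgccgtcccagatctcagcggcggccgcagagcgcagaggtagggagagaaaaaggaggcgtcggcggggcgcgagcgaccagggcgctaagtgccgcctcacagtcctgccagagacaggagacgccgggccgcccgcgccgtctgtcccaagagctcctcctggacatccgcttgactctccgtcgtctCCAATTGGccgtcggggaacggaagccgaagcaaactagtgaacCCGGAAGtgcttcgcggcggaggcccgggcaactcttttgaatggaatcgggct
PSMD1: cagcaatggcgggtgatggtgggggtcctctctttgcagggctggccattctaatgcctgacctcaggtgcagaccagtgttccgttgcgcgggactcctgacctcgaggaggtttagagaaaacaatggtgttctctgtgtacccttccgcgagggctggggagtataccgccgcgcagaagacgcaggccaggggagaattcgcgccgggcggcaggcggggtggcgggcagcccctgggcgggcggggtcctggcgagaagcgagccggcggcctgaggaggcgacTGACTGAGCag
PSMD12: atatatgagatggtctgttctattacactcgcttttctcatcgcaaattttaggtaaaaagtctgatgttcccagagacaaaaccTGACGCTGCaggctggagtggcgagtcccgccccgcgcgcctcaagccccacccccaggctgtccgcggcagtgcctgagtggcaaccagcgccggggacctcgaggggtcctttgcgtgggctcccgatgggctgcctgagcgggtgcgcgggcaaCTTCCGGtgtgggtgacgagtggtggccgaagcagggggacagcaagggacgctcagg
PSME4: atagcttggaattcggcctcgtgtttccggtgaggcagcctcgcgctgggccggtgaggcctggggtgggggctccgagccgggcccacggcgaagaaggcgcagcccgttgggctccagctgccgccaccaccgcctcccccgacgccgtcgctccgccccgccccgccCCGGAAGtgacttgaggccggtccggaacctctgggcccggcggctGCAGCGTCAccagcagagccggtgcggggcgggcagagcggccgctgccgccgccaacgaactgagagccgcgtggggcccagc

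Levels of the proteasome genes differed between the lines. In the 24 non-LRC libraries all 37 genes differed (edgeR, F test), as did 98.3% of all genes tested, so the count sets them apart from nothing. The highest mean of a gene was 1.82 times its lowest (median over the 37 genes). RKO held the highest level of 16 genes, and SW948 and HCT15 the lowest of 12 each. PSMD2, the ubiquitin-binding scaffold of the 19S base, had the smallest p and the widest range, 4.97 times.

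PSMD2 was at 813, 853, 824 and 840 CPM in RKO, far above every other line. SW948 followed with 282, 294, 271 and 291 CPM. SW48 had 263, 370, 249 and 253 CPM and HCT15 263, 259, 245 and 233 CPM, and these neighbors overlapped, as SW48 did with SW948 through its replicate 2. HT55 had 196, 177, 203 and 191 CPM and DLD1 167, 163, 164 and 175 CPM, so sorted DLD1 was lowest. The unsorted DLD1 cultures were higher than the sorted cells of that line, with means of 333 and 314 CPM on d1 and d5 without the dye and 392 and 452 CPM with it, so the order holds for sorted non-LRCs. PSMD5, a chaperone of base assembly, ranged from a mean of 37.8 CPM in SW48 to 125 CPM in RKO, and PSMB7 from 111 CPM in HCT15 to 351 CPM in RKO. PSMA3 had another order, with RKO non-LRCs at a mean of 70.7 CPM and SW948 alone below them.

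The DLD1 controls asked what time in culture and the dye did without sorting. The 4 comparisons share their samples, so they are not independent of each other. The days also differed in the share of uniquely aligned reads that fell on no counted gene. It was 8.96% to 14.8% in the d1 libraries and 5.19% to 8.35% in the d5 libraries, and its part in the time comparisons was not tested. Without the dye, 1 of the 37 genes was higher on d5 than on d1 and 1 lower (12.4% of all 14518 genes higher and 13.1% lower), and the median log2 fold change was 0.00. PSME1 rose and PSME4 fell. With the dye 6 were higher and 1 lower (20.2% and 19.1% of all genes), with a median of 0.07. Neither count was above the share of all genes called in either direction. With 1 library left out, the median without the dye lay between -0.10 (without replicate 4 on d1) and 0.05 (without replicate 2 on d1), and with the dye between 0.01 (without replicate 2 on d5) and 0.13 (without replicate 3 on d5).

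PSME1 (ENSG00000092010, chr14:24605372-24608176, GRCh37) moved most with time, in both series. Without the dye it had 125, 127, 123 and 160 CPM on d1 and 212, 203, 173 and 179 CPM on d5 (log2 fold change 0.48 ± 0.11, adjusted p = 0.00898 by edgeR). With the dye it had 67.0, 82.7, 86.9 and 89.3 CPM on d1 and 144, 151, 145 and 160 CPM on d5 (0.81 ± 0.11, adjusted p = 1.26e-04 by edgeR). All d5 libraries lay above all d1 libraries in each series. PSME2, its partner in PA28, was higher with time in the dyed cells (0.51, adjusted p = 0.0138 by edgeR) and stood at -0.02 in the undyed cells.

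The immunoproteasome subunits, which are made with PA28 in response to interferon, were read beside them. In the dyed cells all 3 were higher with time, PSMB8 by 1.03, PSMB9 by 1.24 and PSMB10 by 0.51 on the log2 scale, and in the undyed cells 0 of 3 were called. PSMB8 had 9.37, 13, 21.1 and 22.2 CPM on d1 and 33.7, 34.9, 33.5 and 39.1 CPM on d5 with the dye. Other proteasome genes higher with time in the dyed cells were PSMB5 (0.41), PSMD10 (0.41), PSMA4 (0.32, with an adjusted p just under the threshold of 0.05 by edgeR) and PSMB4 (0.31), and PSMD12 was lower (-0.47). PSMD10 lost its call with same-numbered libraries paired (adjusted p = 0.0516 by edgeR).

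Single libraries decided several of these calls. Without the dye the count of 2 became 1 without replicate 1, 2 or 3 on d1 or replicate 1 on d5, 7 without replicate 4 on d1, and 4 without replicate 4 on d5. With the dye the count of 7 became 1, 2 and 4 without replicates 1, 2 and 3 on d1, and 3, 3 and 4 without replicates 1, 2 and 4 on d5. The shares of all genes called with 1 library left out were not counted, here or for the dye below. PSME1 was called in both series with any 1 of their libraries left out. PSMB6 and PSMB7 had log2 fold changes of 0.00 and 0.01 with time without the dye and of 0.11 and -0.14 with it, and PSMD14 of 0.06 and 0.09.

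On d1 the dyed cultures differed from the undyed in 8 proteasome genes, 7 higher and 1 lower, where 9.73% of all 14518 genes were higher and 12% lower. The median log2 fold change was 0.17, against -0.01 over all genes tested. PSMD12 (ENSG00000197170, chr17:65334032-65362721, GRCh37) was at 97.4, 98.0, 105 and 82.2 CPM without the dye and at 179, 176, 118 and 131 CPM with it (0.70 ± 0.17, adjusted p = 0.00891 by edgeR). The dyed libraries all lay above the undyed ones, although they were far apart among themselves. PSME1 was lower with the dye (-0.68, adjusted p = 0.00115 by edgeR) and PSME4 higher (0.47, adjusted p = 0.00653 by edgeR). The other genes called were PSMC4, PSMD3, PSMB7, PSMC1 and PSMD6, all higher. The 3 immunoproteasome subunits were all lower, PSMB8 by 0.76, PSMB9 by 0.94 and PSMB10 by 0.49 on the log2 scale. The count of 8 became 4 without dyed replicate 1 or 2 and 5 without undyed replicate 3 or 4.

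On the late day 5 genes were higher in the dyed cultures and 0 lower, where 3.11% of all 14518 genes were higher and 2.03% lower. The median log2 fold change was 0.24, against -0.03 over all genes tested. PSME4 (ENSG00000068878, chr2:54091206-54198130, GRCh37) had 83.6, 103, 103 and 95.6 CPM without the dye and 154, 154, 131 and 127 CPM with it (0.56 ± 0.11, adjusted p = 0.0169 by edgeR), with no overlap. PSMD2 (0.53), PSMD1 (0.46), PSME3 (0.45) and PSMD11 (0.42) were the other genes called. PSME1 was at -0.35 (adjusted p = 0.0637 by edgeR), PSMD14 at 0.38 (0.139), PSMB5 at 0.28, PSMB7 at 0.27 and PSMB6 at 0.19, none of them called.

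These late calls had little margin. They came to 0 without dyed replicate 1 or 2, and to 0 without undyed replicate 1 or 4, and to 2 without undyed replicate 3. PSMD1 showed the pattern per library, with 141, 167, 157 and 140 CPM without the dye and 217, 229, 189 and 193 CPM with it on d5. Dyed replicates 1 and 2 were the higher pair in PSMD1 and in PSME4. Of the 12 proliferation markers 11 were higher in the dyed late cultures (median log2 fold change 0.78), with a summed level of 1790 to 2530 CPM without the dye and 3510 to 3970 CPM with it, and their part was not tested.

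**Figure D4:**
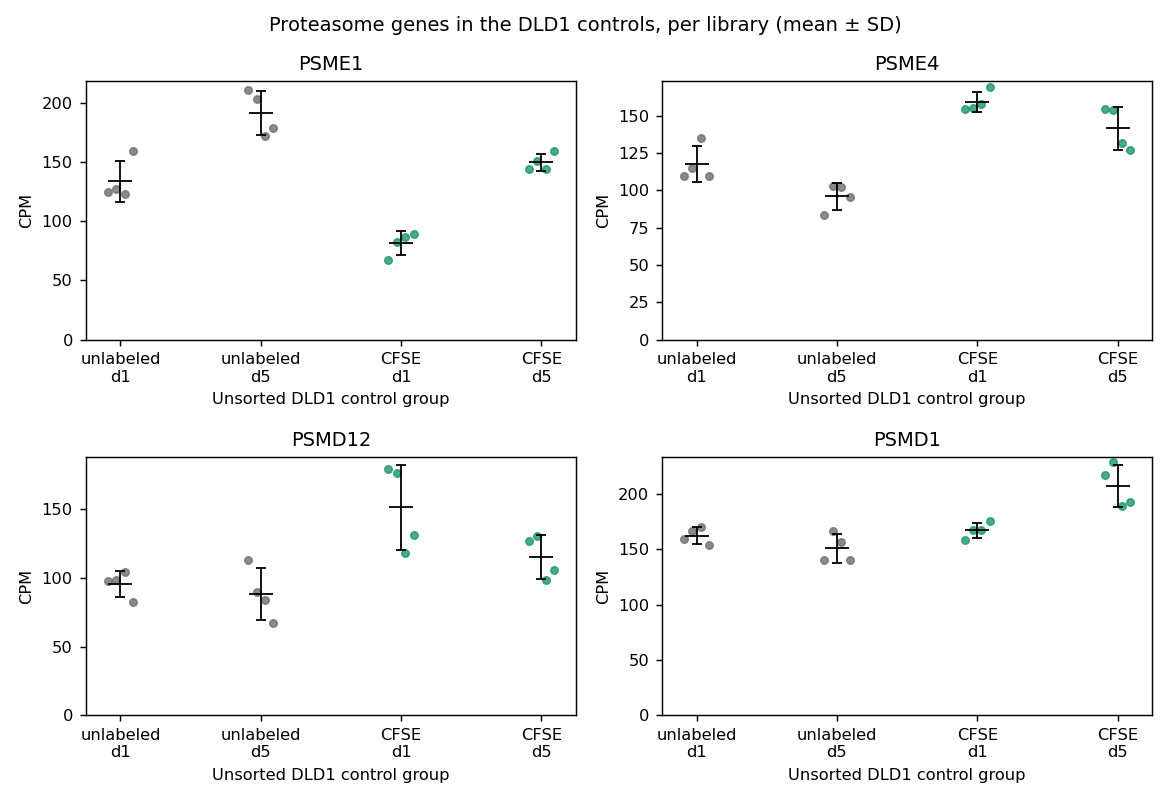
CPM of PSME1, PSME4, PSMD12 and PSMD1 in the 16 unsorted DLD1 libraries, undyed in gray and dyed in green, on d1 and d5, with the mean ± SD of 4. PSME1 rises with time in both series, from 67.0 to 89.3 CPM up to 144 to 160 CPM with the dye, and PSME4 lies higher with the dye on both days.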

How the data were processed

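RNA sequencing of 48 sorted and 16 control samples was analysed. The values deposited by the authors are raw read counts, 1 file per sample, for 54127 Ensembl genes, with no normalization. Per the labels and the methods, total RNA was made into TruSeq libraries, read as 50-bp single ends and aligned to hg19 (GRCh37). TopHat and HTSeq are named in the submitters' processing notes without versions, and the annotation is not given in the sources used here. Reads that overlapped several genes (1.51% to 2.21% of reads) or aligned to several places (20.0% to 31.8% of alignments) were not assigned. Overlapping and near-identical genes are therefore uncertain.

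Symbols and positions came from GENCODE 44 on GRCh37. Counts were tested in R 4.3.3 with edgeR 4.0.16 (TMM, quasi-likelihood test, two-sided, Benjamini-Hochberg over all genes tested, threshold 0.05) on genes that reached 10 counts in 4 or more samples, with line as a covariate across lines and group means in the controls. CPM used TMM factors over all 64 samples. Alternatives were DESeq2 1.42.0, RLE size factors, no filter, a replicate block, and each library, replicate or line left out. The tests were tried on simulated data. Figures were drawn with matplotlib 3.10.9. Same-numbered libraries were checked for pairing by the correlation of their deviations from group means. Every pair was over 0.1 in HT55, SW48, DLD1 and HCT15 and in the dyed controls over time, and not elsewhere. In no comparison did every library correlate best with its own number.

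The members and lists were chosen with earlier results of these data known. Genes were named if called across the lines (up to 12 by size), or among the 3 largest in another comparison, and PSMB5, PSMB6, PSMB7, PSMD14, PSME1 to PSME4, PSMA8 and PSMB11 always; other called genes of small counts were named after their values were seen. Precision is limited by 4 samples per group and by counting error at the depth stated, and intervals from counting were not used.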

Additional observations from a re-analysis of the deposited data

Results flagged for a closer look

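The LRC effect differed between lines for 15 proteasome genes by edgeR's interaction test. Those named in the text had adjusted p-values of 2.30e-04 (PSMA3), 0.00618 (PSMA4), 0.00989 (PSMD12), 0.0112 (PSMA7), 0.0121 (PSMB7), 0.0281 (PSMB1) and 0.0399 (PSMA1) by edgeR.

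A single library lay far from the other 3 of its group, by the ratio of its gap to the group's range, in 8 of 66 groups of values screened, where chance alone gives about 1 in 20. For the share of reads on the proteasome genes these were 1 SW948 LRC library (0.445% against 0.417% to 0.420%) and 1 SW48 non-LRC library (0.459% against 0.329% to 0.344%), the latter also high in PSMD2 (370 CPM against 249 to 263 CPM). PSMA3 was low in 1 RKO LRC library (37.8 CPM against 44.5 to 45.2 CPM). PSMA7 was high in 1 SW948 LRC library (304 CPM against 246 to 252 CPM) and in 1 RKO non-LRC library (247 CPM against 213 to 218 CPM), and low in 1 HCT15 non-LRC library (112 CPM against 128 to 131 CPM). PSME1 was high in 1 undyed DLD1 library of d1 (160 CPM against 123 to 127 CPM).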

How the results depend on the processing

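Counts of called genes stayed within 1.5 times of the reported ones with DESeq2 and with RLE size factors in every comparison. The alternatives added after seeing the data were the test of line differences without RKO (0 genes against 15) and the genes with at most 10% shared exon bases, which moved no count past 1.5 times. Without the filter on low counts the unlabeled time comparison had 1 gene and the dye comparison on d1 had 3. With the replicate number as a block, DLD1 had 19 genes, HCT15 3, the test of line differences 25 and the dye comparison on the late day 10. Of all genes, 16.6% were then lower and 17.1% higher in DLD1, and 10% and 11.3% in HCT15. The shares of all genes called with the block were not counted for the line differences and the late dye. Same-numbered libraries correlated over 0.1 in every pair in DLD1 and HCT15. They did not in RKO, SW948 or across dye, where the pairing is not known. The block moved no other count of calls past 1.5 times. Across the lines, 2 genes were called without RKO and 9 without DLD1.

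With single replicates left out, counts ran from 9 to 14 across the lines, 3 to 10 in DLD1, 29 to 32 in RKO, 0 to 1 in SW948, 1 to 20 for line differences, 1 to 7 over time without the dye, 1 to 8 with it, 4 to 9 for the dye on d1 and 0 to 6 on the late day. The shares of all genes called in these fits were not counted. PSME4 stood at 0.02 across the lines, ran from -0.0015 (without replicate 2) to 0.0322 with replicates left out, and was -0.0086 without SW48. The median for the dye on d1 was 0.10 without undyed replicate 4. Of 596 recomputed single-gene values and medians, 529 kept direction and side of the threshold or stayed within the spread. The cause of these changes was not tested.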
